A study of Mus musculus with 7 samples.

Results

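The 33 genes described here are widely used markers of astrocytes, the star-shaped glial cells of the brain. They were taken by symbol from a list, and all 33 were found among the 43626 gene identifiers of the table. The tissue, prefrontal cortex, came from male mice of the C57BL/6J strain at an age of 8 weeks, either wild type (WT, 3 libraries) or of the genotype hDISC1AA/+ (4 libraries), a heterozygote by its notation. The series concerns the phosphorylation of DISC1, a scaffold protein, and the labels do not explain the allele name further. They also do not say whether a library holds 1 mouse or several, so p-values measure the spread between these libraries, which may be partly technical. Of the 4 hDISC1AA/+ columns, 3 carry the title of replicate 1, 3 or 4, and the remaining column, whose number matches none of the titles, is referred to as the unnumbered library. Replicate numbers are names only and pair nothing.

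Astrocytes take up glutamate and GABA after synaptic release and turn glutamate into glutamine. They are coupled to each other by gap junctions, wrap blood vessels with endfeet rich in water channels, store glycogen and secrete lipoproteins. Several of the 33 genes are active in other cells as well. Apoe and Cst3 are made by microglia, Sparcl1 by neurons and vessels, Sox2 and Glul by cells of the oligodendrocyte lineage, and Clu by some neurons.

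Values are the authors' normalized counts, that is, reads per gene divided by 1 size factor per library. All 33 genes passed the filter on low values, and the lowest value of any of them in any library was 579.6 normalized counts (Bmpr1b in hDISC1AA/+ replicate 1). WT replicate 1 was the deepest library, with 63845254 recovered reads assigned to genes, and the other 6 had 33512557 to 36005116. WT replicate 1 stands apart in cell type markers and hDISC1AA/+ replicate 1 in base composition, so fold changes are given with and without WT replicate 1, and for genes low in hDISC1AA/+ replicate 1 also without both. The mitochondrial share was 1.94% for hDISC1AA/+ replicate 1, against 5.14% to 6.94% elsewhere. Neuronal markers were abundant throughout, with 16 of 16 tested and a sum of 572309 to 699823 normalized counts per library.

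Promoter windows are shown for 4 of the genes, because these stand furthest above (Gfap, Bmpr1b, Cst3) and furthest below (Slc6a11) the other libraries in WT replicate 1, among those in the table of promoters used. They run from 250 bases before to 50 bases after a transcription start, 5′ to 3′ on the gene's strand, from RefSeq on GRCm38.p6. Bmpr1b has 3 such windows and the first is shown. Capitals mark matches, read on both strands, to short motifs bound by NFI, SOX and STAT factors, which act in astrocyte development, or to the TATA box, whose letters follow the windows.
Gfap (chr11:102897151-102897450, minus strand): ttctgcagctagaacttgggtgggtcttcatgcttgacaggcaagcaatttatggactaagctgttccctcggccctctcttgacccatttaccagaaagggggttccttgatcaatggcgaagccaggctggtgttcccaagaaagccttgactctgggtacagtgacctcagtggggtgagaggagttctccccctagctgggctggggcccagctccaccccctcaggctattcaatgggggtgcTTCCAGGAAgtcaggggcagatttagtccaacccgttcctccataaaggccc
Bmpr1b (chr3:141982215-141982514, minus strand): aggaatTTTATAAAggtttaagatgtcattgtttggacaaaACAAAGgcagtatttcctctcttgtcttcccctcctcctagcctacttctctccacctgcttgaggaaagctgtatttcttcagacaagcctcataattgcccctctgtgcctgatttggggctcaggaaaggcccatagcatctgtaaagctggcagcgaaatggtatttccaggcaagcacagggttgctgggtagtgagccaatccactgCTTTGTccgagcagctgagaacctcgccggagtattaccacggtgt
Cst3 (chr2:148875463-148875762, minus strand): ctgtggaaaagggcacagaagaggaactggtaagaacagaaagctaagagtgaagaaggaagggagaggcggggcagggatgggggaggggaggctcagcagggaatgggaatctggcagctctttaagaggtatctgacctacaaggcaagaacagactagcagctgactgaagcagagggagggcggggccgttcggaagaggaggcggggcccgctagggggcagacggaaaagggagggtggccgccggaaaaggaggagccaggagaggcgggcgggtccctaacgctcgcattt
Slc6a11 (chr6:114130991-114131290, plus strand): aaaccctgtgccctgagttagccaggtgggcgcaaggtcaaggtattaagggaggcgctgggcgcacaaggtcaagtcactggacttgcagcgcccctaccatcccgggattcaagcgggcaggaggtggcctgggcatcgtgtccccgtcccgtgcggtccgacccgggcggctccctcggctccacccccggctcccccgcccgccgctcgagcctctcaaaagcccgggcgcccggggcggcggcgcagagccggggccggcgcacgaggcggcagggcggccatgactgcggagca
The Gfap window holds a STAT match that begins at base 249, next to the start, and the Bmpr1b window holds SOX matches at bases 42 and 255 and overlapping TATA matches at bases 7 and 9. The Cst3 and Slc6a11 windows hold none of the 4. Of the 33 genes 28 matched the table, with 35 windows. The STAT motif was searched as TTCNNNGAA and found in 5 of 35 windows of these genes and in 8.3% of all 32851 windows, and SOX was searched as ACAAAG and found in 7 of 35 windows of these genes and in 18.7% of all 32851 windows. For NFI the letters were TTGGCA, present in 4 of 35 windows of these genes and in 14.1% of all 32851 windows. For the TATA box they were TATAAA, present in 4 of 35 windows of these genes and in 13.6% of all 32851 windows. These are matches of letters only, and no binding was measured.

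Per kilobase of exon, the 33 genes spanned normalized counts from 117 (Cbs) to 23919 (Apoe), as means of 7 libraries. The most abundant were Apoe (the lipid carrier; 19266 to 31319 over the libraries), Sparcl1 (a secreted protein that promotes synapse formation; 19898 to 26012), Cst3 (the protease inhibitor cystatin C; 13686 to 30546) and Glul (glutamine synthetase; 16134 to 24607), whose ranges overlapped. Next came Slc1a2 (8547), Aldoc (8249) and Clu (6861), again with overlapping ranges. The least abundant were Gpc5 (264), Btbd17 (251), Bmpr1b (170.5) and Cbs (117). Exon lengths merge all annotated transcripts, which lowers these values for genes with long rare forms.

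None of the 33 astrocyte genes passed the test between hDISC1AA/+ and WT, with or without WT replicate 1. With 7 libraries limma called 0 of 33 at an adjusted p under 0.05, and 0% of the 17670 genes tested. The members' adjusted p-values were 0.974 to 0.998. At an unadjusted p under 0.05 there was 1 of 33 (Slc1a2), against 2.44% of all genes. Without WT replicate 1 there were 0 of 33 at an adjusted p under 0.05 (0% of 17528 genes) and 0 of 33 at an unadjusted p under 0.05 (1.57%). The groups overlapped for all 33 genes: 0 of 33 were separate with 7 libraries (5.04% of all genes) and 0 of 33 without WT replicate 1 (12.1%). On the recovered reads edgeR and DESeq2 also called 0 genes in both comparisons, with 1 (Slc1a2) and 2 (Slc1a2 and Bmpr1b) of the 33 at an unadjusted p under 0.05 in 7 libraries.

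Most fold changes pointed the same way with 7 libraries, and about evenly both ways without WT replicate 1. Of the 33 genes 30 were lower in hDISC1AA/+ by sign, where 52.2% of all genes were, with a median log2 fold change of -0.18 (all genes -0.0092). With that library left out the count was 18 of 33, where 51.7% of all genes were lower by sign, and the median was -0.013 (all genes -0.0069). With transcript GC content and length removed from the log values, 33 of 33 were lower with 7 libraries (median -0.23; 55.7% of all genes), and without WT replicate 1 it was 25 of 33 (median -0.045; 50.9% of all genes). In bulk tissue, fewer astrocytes and less RNA per astrocyte cannot be told apart. Fold changes are hDISC1AA/+ minus WT on the log2(normalized count + 1) scale.

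**Figure D1:**
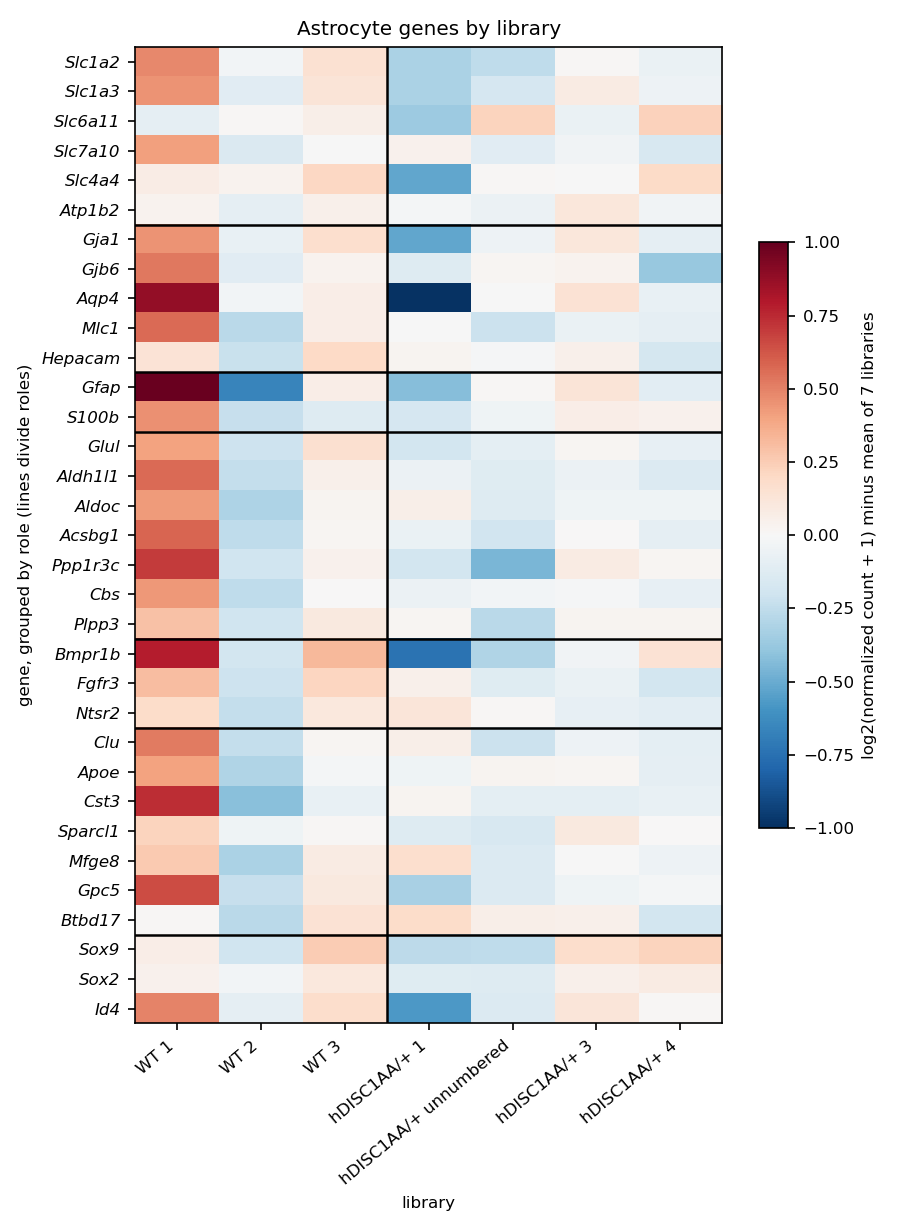
Heat map of the 33 astrocyte genes (rows, grouped by role) in the 7 libraries (columns). Colour is log2(normalized count + 1) minus the gene's mean over the 7 libraries, from -1 (blue) to 1 (red). WT replicate 1 is the highest library for 26 of the 33 genes, and the strongest blue cells lie in hDISC1AA/+ replicate 1 (Aqp4, Bmpr1b).

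Among the transporters, Slc1a2 had the only unadjusted p under 0.05. Slc1a2, the main glutamate transporter of the forebrain (chromosome 2, 102658659 to 102790784, plus strand of GRCm38), had normalized counts of 154656, 108621 and 123085 in WT replicates 1 to 3. In hDISC1AA/+ replicate 1, the unnumbered library and replicates 3 and 4, in the order used throughout, it had 88995, 92950, 111545 and 105864. Only hDISC1AA/+ replicate 3 lay above the lowest WT library. The means were 128787 ± 23541 (SD, n = 3) in WT and 99839 ± 10620 (SD, n = 4) in hDISC1AA/+, a log2 difference of -0.36 (limma unadjusted p = 0.0269, adjusted p = 0.974; 95% CI -0.66 to -0.05). Without WT replicate 1 it was -0.22 (95% CI -0.50 to 0.06), and without hDISC1AA/+ replicate 1 as well it was -0.16. The second glutamate transporter gene, Slc1a3, had 33283, 22529 and 26624 in WT and 19566, 21711, 25762 and 23567 in hDISC1AA/+, with the lowest value again in hDISC1AA/+ replicate 1. Its log2 fold change was -0.27 with 7 libraries, -0.12 without WT replicate 1 and -0.05 without both of these libraries.

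Of the other 4 transport genes, only Slc4a4 was lower by sign both with 7 libraries and without WT replicate 1. Atp1b2, a subunit of the sodium pump, was the steadiest, with 17410, 15997 and 17639 in WT and 16824, 16370, 18403 and 16659 in hDISC1AA/+ (log2 fold change 0.004, 95% CI -0.19 to 0.20; 0.02 without WT replicate 1). Slc6a11, a GABA transporter, was the only one of the 33 genes whose value in WT replicate 1 lay below the mean of the other 6 libraries (a log2 difference of -0.10). It had 7466, 7979 and 8245 in WT and 6172, 9259, 7569 and 9329 in hDISC1AA/+, where the single lowest and the 2 highest libraries were both found (log2 fold change 0.01; -0.03 without WT replicate 1 and 0.10 without hDISC1AA/+ replicate 1 as well). The bicarbonate transporter gene Slc4a4 (log2 fold change -0.18; -0.20 without WT replicate 1 and -0.05 without both libraries) was lowest in hDISC1AA/+ replicate 1, at 4283 against 6134 to 7074 in the other 6 libraries. Slc7a10, a transporter of small neutral amino acids such as D-serine, had a log2 fold change of -0.16, and 0.01 without WT replicate 1. Its exons overlap those of Lrp3 on the opposite strand (mean 2685 normalized counts), and whether the counting used strand is not given in the sources used here.

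All 5 genes of gap junctions and endfeet were lower by sign with 7 libraries, and 4 of 5 without WT replicate 1. Aqp4, the water channel of endfeet (chromosome 18, 15389496 to 15410982, minus strand), varied the most between libraries, with 11550, 6178 and 6571 in WT and 3172, 6282, 6949 and 5970 in hDISC1AA/+. A single WT library lay high and a single hDISC1AA/+ library lay low, and the other 5 libraries lay between 5970 and 6949. Its log2 fold change was -0.53 (95% CI -1.25 to 0.18) with 7 libraries, -0.25 without WT replicate 1 and 0.0036 without WT replicate 1 and hDISC1AA/+ replicate 1. Gja1, the main astrocyte connexin, had 10471, 7282 and 8577 in WT and 5339, 7384, 8298 and 7190 in hDISC1AA/+ (log2 fold change -0.32, 95% CI -0.70 to 0.07; -0.18 without WT replicate 1 and -0.05 without both libraries). The groups overlapped, with hDISC1AA/+ replicate 1 lowest. Gjb6, the other connexin of the list, had log2 fold changes of -0.27 and -0.08 in the same 2 comparisons. Mlc1 and Hepacam encode membrane proteins that act together at endfeet. Mlc1 had log2 fold changes of -0.21 with 7 libraries and 0.01 without WT replicate 1. Hepacam had normalized counts of 3287, 2557 and 3427 in WT and 3054, 2959, 3100 and 2646 in hDISC1AA/+, the smallest difference of the 5 (log2 fold change -0.06; -0.01 without WT replicate 1).

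The log2 fold changes of Gfap and S100b were below 0 with 7 libraries and above 0 without WT replicate 1. Gfap, the intermediate filament protein used to stain astrocytes of white matter and the brain surface and those reacting to injury (chromosome 11, 102887336 to 102900912, minus strand), had 9715, 3095 and 5118 in WT. In hDISC1AA/+ it had 3640, 4929, 5347 and 4557, a range that lies inside the WT range. The 2 WT libraries other than replicate 1 held the lowest and the second highest of the remaining 6 values. The log2 fold change was -0.23 (95% CI -1.02 to 0.56) with 7 libraries and 0.20 (95% CI -0.33 to 0.73) without WT replicate 1, and 0.31 without hDISC1AA/+ replicate 1 as well. S100b, a calcium-binding protein, had 4210, 2621 and 2810 in WT and 2737, 2974, 3224 and 3164 in hDISC1AA/+ (log2 fold change -0.06, 0.15 without WT replicate 1 and 0.20 without both libraries).

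**Figure D2:**
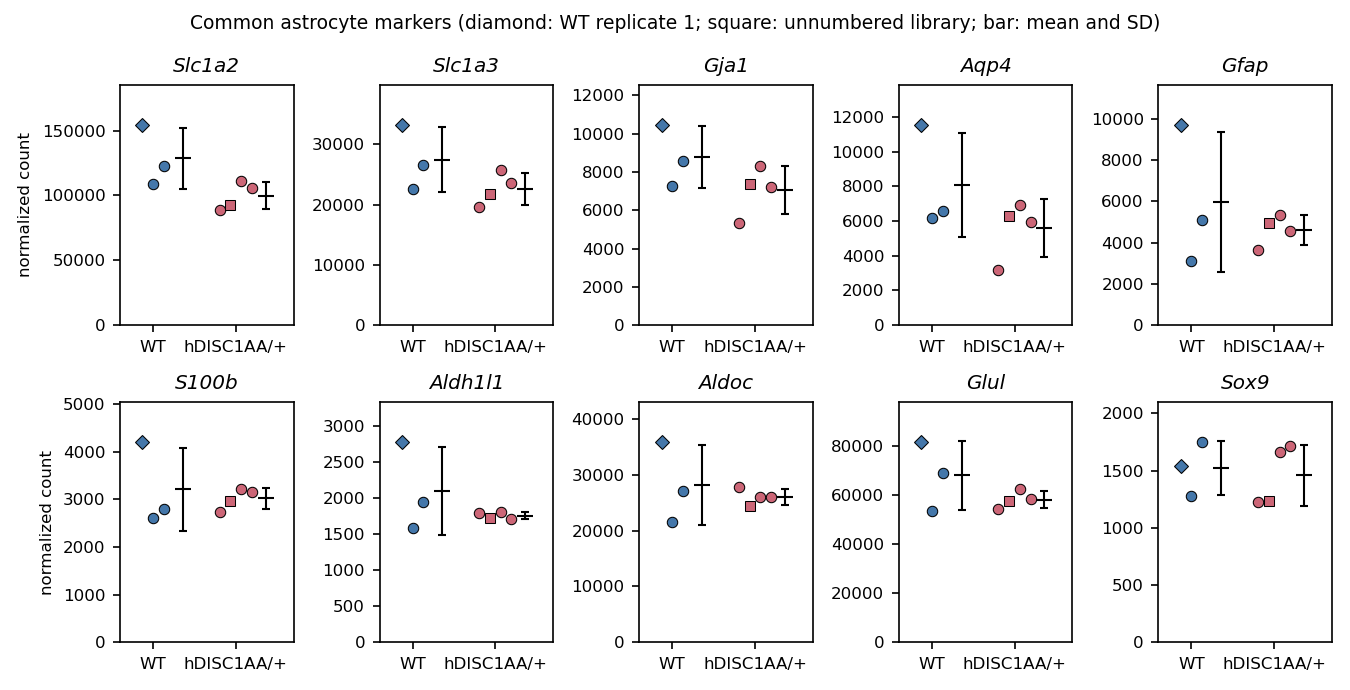
Normalized counts (vertical axes, from 0) of 10 common astrocyte markers in each WT (blue) and hDISC1AA/+ (red) library, with the mean and SD of each group as bars. The diamond, WT replicate 1, is the highest point in every panel but that of Sox9, and the groups overlap in all 10.

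The 7 metabolic enzymes were all lower by sign with 7 libraries, and 3 of 7 without WT replicate 1. Glul had normalized counts of 81770, 53612 and 69156 in WT and 54414, 57728, 62591 and 58324 in hDISC1AA/+. Its means were 68180 ± 14105 (SD, n = 3) in WT and 58264 ± 3359 (SD, n = 4) in hDISC1AA/+ (log2 fold change -0.21, 95% CI -0.52 to 0.10; -0.07 without WT replicate 1). Aldh1l1, a folate enzyme used as a general astrocyte marker, had 2777, 1586 and 1938 in WT and 1796, 1720, 1801 and 1709 in hDISC1AA/+. The 4 hDISC1AA/+ values lay between WT replicates 2 and 3, and the log2 fold change went from -0.22 to 0.0026 without WT replicate 1 (95% CI -0.25 to 0.25). Aldoc, the brain form of aldolase, had 35844, 21500 and 27070 in WT and 27804, 24372, 25910 and 25912 in hDISC1AA/+ (log2 fold change -0.08, the smallest of the 7 in size; 0.11 without WT replicate 1). Ppp1r3c, which directs a phosphatase to glycogen, had 2262, 1211 and 1431 in WT and 1228, 1012, 1475 and 1412 in hDISC1AA/+ (log2 fold change -0.31, the largest of the 7 in size, and -0.05 without WT replicate 1). For both, WT replicate 1 alone lay above the rest. Acsbg1, an acyl-CoA synthetase, had -0.20 with 7 libraries and 0.03 without WT replicate 1. For Cbs, an enzyme of cysteine synthesis, the 2 values were -0.11 and 0.08, and for Plpp3, a lipid phosphatase, -0.12 and -0.00059.

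Of the 3 receptors, Bmpr1b had the largest fold change of all 33 genes. Bmpr1b, a receptor for bone morphogenetic proteins (chromosome 3, 141837136 to 142169425, minus strand), had 1665, 854 and 1214 in WT and 579.6, 786, 943 and 1073 in hDISC1AA/+. WT replicate 1 was the highest library and hDISC1AA/+ replicate 1 the lowest, and the other 5 overlapped. In log2 units the fold change came to -0.54 (limma adjusted p = 0.974; 95% CI -1.14 to 0.06), -0.31 without WT replicate 1 and -0.14 without both of these libraries. Ntsr2, a neurotensin receptor, had 3313, 2486 and 3148 in WT and 3180, 2947, 2766 and 2723 in hDISC1AA/+ (log2 fold change -0.03; 0.05 without WT replicate 1). The growth factor receptor gene Fgfr3 had -0.19, and -0.09 without WT replicate 1.

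The 7 genes of secreted and surface proteins were mostly abundant, and 6 were lower by sign with 7 libraries against 2 without WT replicate 1. Gpc5, a glypican, had 1808, 980.0 and 1234 in WT and 917, 1045, 1119 and 1134 in hDISC1AA/+, with the lowest value in hDISC1AA/+ replicate 1. Its log2 fold change was -0.31, and it was -0.07 without WT replicate 1 and -0.0012 without both of these libraries. Mfge8, a bridging protein of phagocytosis, had 7211, 4833 and 6382 in WT and 6787, 5476, 6001 and 5831 in hDISC1AA/+ (log2 fold change -0.01; 0.11 without WT replicate 1). For both genes WT replicate 1 was highest, and the groups overlapped. Cst3 had 38671, 17326 and 22052 in WT and 23568, 21662, 21712 and 21978 in hDISC1AA/+, so that the WT libraries held both ends of the range. Without WT replicate 1, Cst3 (0.18, 95% CI -0.08 to 0.45) and Apoe (0.14, 95% CI -0.11 to 0.38) were above 0, where with it they were -0.14 and -0.05. Clu, the chaperone clusterin, went from -0.18 to 0.03, Sparcl1 from -0.11 to -0.03 and Btbd17 from 0.07 to 0.09.

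The 3 transcription regulators were lower by sign in both comparisons. Sox9, a factor of astrocyte identity, had 1538, 1279 and 1751 in WT and 1223, 1233, 1663 and 1715 in hDISC1AA/+, so that each group held high and low libraries (log2 fold change -0.07, 95% CI -0.44 to 0.31; -0.06 without WT replicate 1 and 0.02 without both libraries). Sox2, a factor of neural progenitors that astrocytes keep, had 1775, 1690 and 1850 in WT and 1581, 1578, 1781 and 1828 in hDISC1AA/+ (log2 fold change -0.07 with 7 libraries and -0.07 without WT replicate 1). Id4, an inhibitor of DNA binding by helix-loop-helix factors, had 1830, 1221 and 1472 in WT and 874, 1181, 1414 and 1310 in hDISC1AA/+ (log2 fold change -0.34; -0.19 without WT replicate 1 and -0.05 without hDISC1AA/+ replicate 1 as well). Its exons overlap an antisense gene, A330033J07Rik (mean 34.0 normalized counts).

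**Figure D3:**
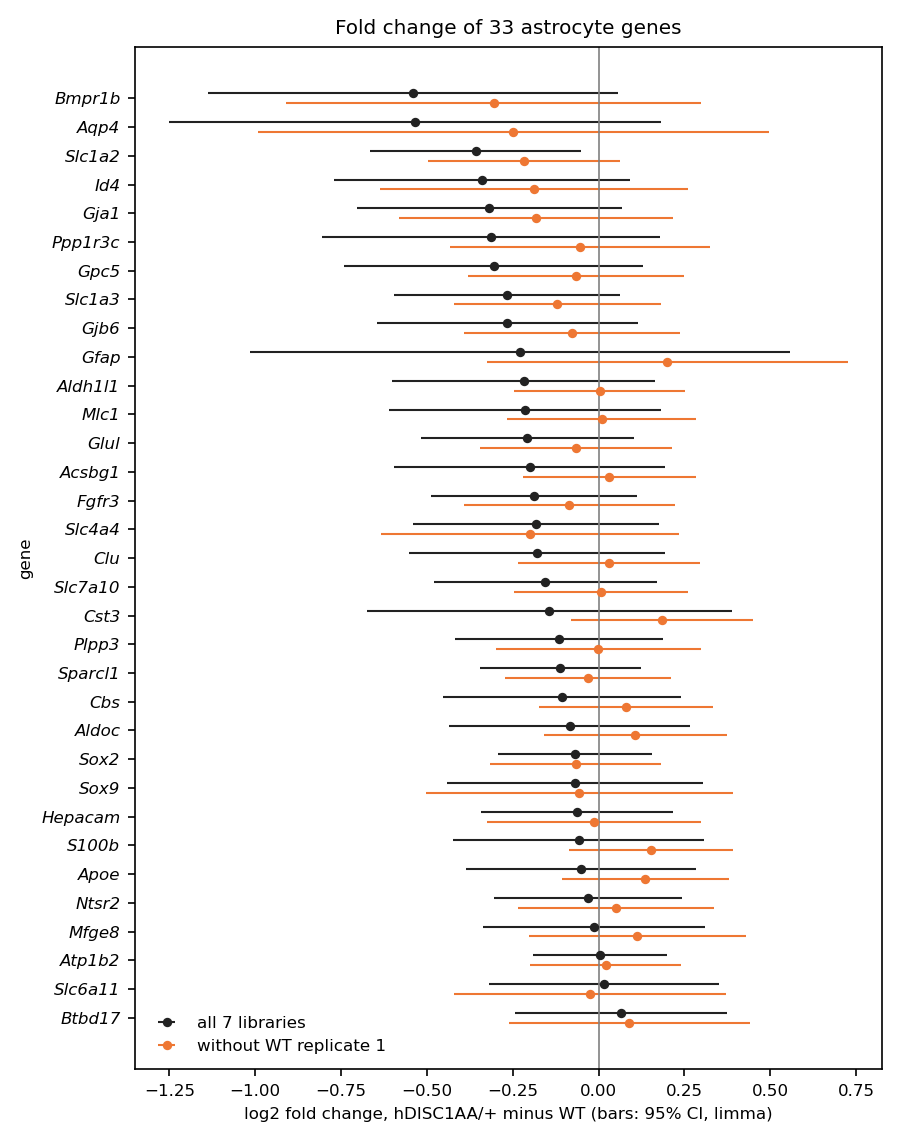
Log2 fold change of each astrocyte gene, hDISC1AA/+ minus WT (horizontal axis), with its 95% CI from limma as a bar, for all 7 libraries (black) and without WT replicate 1 (orange). Most black points lie left of 0, and the orange points, 18 of 33 below 0, scatter about it.

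The intervals give the range of differences that each fit allows, for the libraries it used. With 7 libraries the 95% CI lay within 2-fold either way for 30 of 33 genes, where this held for 77.4% of all genes, and the exceptions were Aqp4, Gfap and Bmpr1b. With the same 7 libraries it lay within 1.5-fold for 19 of 33, and the share over all genes is not given for this count. Without WT replicate 1 it lay within 2-fold for 33 of 33 (80.5% of all genes) and within 1.5-fold for 28 of 33 (56.3%). The 5 with wider intervals were Slc4a4, Aqp4, Gfap, Bmpr1b and Id4. The distances from the estimate to the bounds of the 95% CI in the 6 libraries were 0.22 to 0.74 on the log2 scale, with a median of 0.30.

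WT replicate 1 held more transcript of most astrocyte genes than any other library. It was the highest of the 7 for 26 of the 33 genes, where it was for 28.2% of all genes. The log2 difference from the mean of the other 6 had a median of 0.51 over the 33, and ranged from -0.10 (Slc6a11) to 1.15 (Gfap, 2.18-fold). The next were Aqp4 (1.02), Bmpr1b (0.91), Cst3 (0.86), Ppp1r3c (0.82) and Gpc5 (0.76). For 7 genes WT replicate 1 lay within the range of the other 6 libraries: Slc6a11, Btbd17, Atp1b2, Sox2, Sox9, Slc4a4 and Hepacam. All 7 metabolic enzymes, in contrast, were highest in it. The joint share of the 33 genes in the reads was 1.60% there, against 1.17% to 1.37% elsewhere.

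Markers of several other cell types also stood apart in this library, and neuronal markers did so less. The median difference of WT replicate 1 from the other 6 was 1.32 on the log2 scale for oligodendrocyte markers. It was the highest library for 11 of 12 of these, against 28.2% of all genes. The median difference was 0.43 for microglial markers (8 of 12), 0.35 for oligodendrocyte precursors (4 of 10) and 0.12 for neuronal markers (6 of 16). For ependymal and choroid plexus markers it was -0.20 and -0.15. It was -1.70 for endothelial and mural markers (lowest there for 14 of 14, against 24.8% of all genes) and -0.81 for meningeal fibroblast markers (9 of 12). Summed over the list, the oligodendrocyte markers reached 146150 normalized counts there, against 42452 to 54918 elsewhere. For endothelial and mural markers the sum was 5378, against 12662 to 17032. No gene of these lists was at 0 in all libraries. Their part in the astrocyte difference was not tested.

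**Figure D4:**
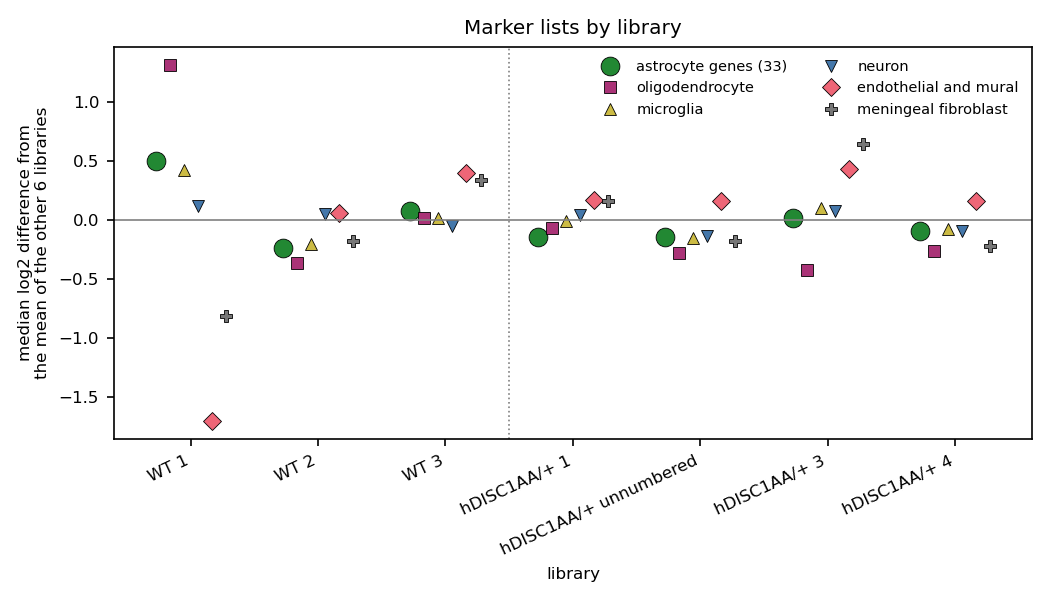
Median log2 difference of each marker list from the mean of the other 6 libraries (vertical axis), by library (horizontal axis, WT left and hDISC1AA/+ right of the dotted line). In WT replicate 1 the astrocyte genes stand at 0.51, below oligodendrocyte markers at 1.32, while endothelial and mural markers stand at -1.70.

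WT replicates 2 and 3 also differed from each other in these genes. All 33 astrocyte genes were higher in WT replicate 3 than in WT replicate 2, where this held for 48.0% of all genes, with a median log2 difference of 0.27. WT replicate 2 was the lowest of the 7 libraries for 17 of the 33 (12.4% of all genes). It lay below all 4 hDISC1AA/+ libraries for 17 of the 33 (18.7%), while WT replicate 3 lay above all 4 for 17 of the 33 (15.4%). For 7 genes both held (1.99%), so that the hDISC1AA/+ values all fell between the 2 WT values. The count of genes lower in hDISC1AA/+ in the 6 libraries therefore depended on which WT library was kept: it was 31 of 33 against WT replicate 3 alone and 10 of 33 against WT replicate 2 alone, the lone library being taken to vary like the others.

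hDISC1AA/+ replicate 1 was low in the astrocyte genes of low GC content. It was the lowest of the 7 libraries for 10 of the 33 genes, where it was for 24.8% of all genes. The division by GC content was chosen after the values were seen. In the 11 genes lowest in GC (41.4% to 48.9% in the longest transcript: Aqp4, Bmpr1b, Gja1, Id4, Slc1a2, Slc1a3, Slc4a4, Ppp1r3c, Sparcl1, S100b and Gpc5), this library was below the mean of the other 6 in 11 of 11, by a median of -0.38 on the log2 scale. In the 11 highest in GC (53.9% to 59.5%) it was below in 5 of 11, with a median of 0.028. Across the 33 genes, which are not independent replicates, the difference was higher at higher GC (Pearson r 0.774, Spearman rho 0.757, a description of 1 library). Over all genes with a transcript sequence r was 0.522. The other libraries had r from -0.55 (WT replicate 2; -0.30 over all genes) to 0.28 (the unnumbered library; -0.11) over the 33 genes. Their differences are from means that include hDISC1AA/+ replicate 1. Gfap (-0.50) and Slc6a11 (-0.42) were low in hDISC1AA/+ replicate 1 at a high GC content.

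Of the 18 genes lower by sign without WT replicate 1, 10 were among the 11 lowest in GC. That is, 10 of the 11 GC-poorest genes were lower in hDISC1AA/+ (median log2 fold change -0.18) and 2 of the 11 GC-richest (median 0.031). Of all genes, whatever their GC content, 51.7% were lower by sign in this comparison. The share among all genes of like GC content is not given, so the split is not shown to be particular to astrocyte genes. Without hDISC1AA/+ replicate 1 as well, the counts were 9 of 11 (median -0.047) and 4 of 11 (median 0.037). With GC content and length removed, the count over the 33 genes went to 25 lower without WT replicate 1, as given above.

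**Figure D5:**
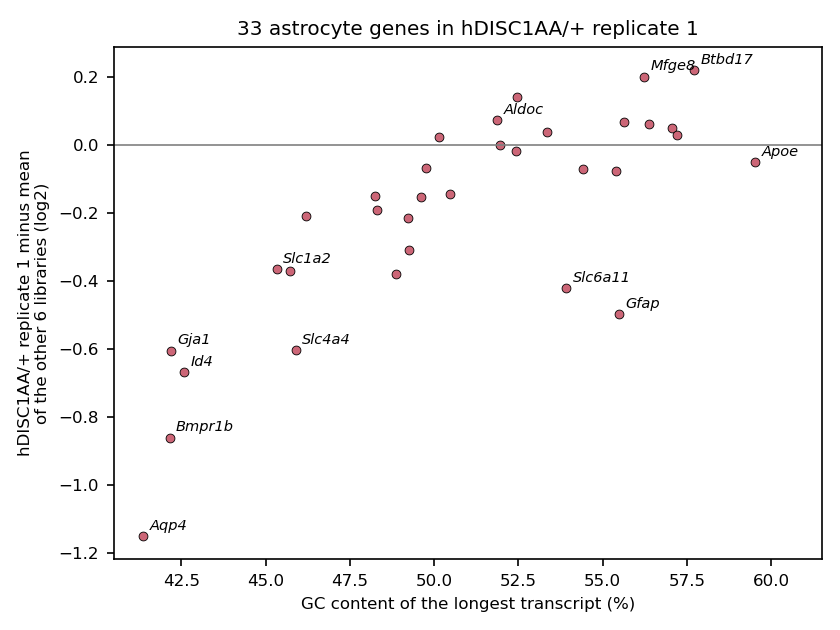
Each point is 1 of the 33 astrocyte genes, placed by the GC content of its longest transcript (horizontal axis, %) and by the log2 difference of hDISC1AA/+ replicate 1 from the mean of the other 6 libraries (vertical axis). The points run from Aqp4 at -1.15 to Btbd17 at 0.22, with Gfap and Slc6a11 below the rest of their GC range.

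None of a further 58 astrocyte genes passed the test. With 7 libraries 47 of 58 were lower by sign (median log2 fold change -0.15; 52.2% of all genes). Without WT replicate 1 it was 32 of 58 (median -0.022; 51.7% of all genes). Those with the smallest unadjusted p were Rfx4, a transcription factor, the potassium channel gene Kcnj10 and Dio2, which activates thyroid hormone (limma adjusted p = 0.974 each). Rfx4 had 574, 506 and 596 in WT and 445, 434, 506 and 459 in hDISC1AA/+ (log2 fold change -0.28, limma unadjusted p = 0.0431). Its groups did not overlap, as for 5.04% of all genes, though hDISC1AA/+ replicate 3 came within 1 count of WT replicate 2. Dio2 stood at 12420 normalized counts for WT replicate 1, and the other 6 libraries lay between 3290 and 5197. Kcnj10 had a log2 fold change of -0.26.

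Genes of reactive astrocytes did not pass the test. Of 39 listed, 34 passed the filter. With 7 libraries 26 of the 34 were higher in hDISC1AA/+ by sign (median 0.14), against 8453 of 17670 genes. Without WT replicate 1 it was 23 of 34 (median 0.074), against 8473 of 17528 genes. Vessels, microglia and other cells also express many of them. WT replicate 1, low in vessel markers, was the lowest library for 16 of the 34 (24.8% of all genes). The part of other cell types in these differences was not tested. Serpina3n, a protease inhibitor gene raised in reactive astrocytes, had 467, 384 and 394 in WT and 487, 453, 492 and 583 in hDISC1AA/+ (log2 fold change 0.28, limma adjusted p = 0.974). With WT replicate 1 left out its groups did not overlap, as for 12.1% of all genes (log2 fold change 0.36, limma adjusted p = 0.9996). Psmb8, an immunoproteasome gene, had 27.6, 14.2 and 16.3 in WT and 23.3, 37.4, 29.2 and 31.9 in hDISC1AA/+ (log2 fold change 0.66; 0.93 without WT replicate 1). These 2 genes were the only ones of the 34 with an unadjusted p under 0.05 in limma without WT replicate 1, against 1.57% of all genes. Serping1, a complement inhibitor gene, had a log2 fold change of 0.44.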

How the data were processed

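RNA-seq of total RNA from mouse prefrontal cortex (Trizol, NEBNext Ultra kit, per the labels' protocols) was used for 3 WT and 4 hDISC1AA/+ libraries. The authors deposited 1 table of normalized counts, a signal made from gene counts, each library divided by its own size factor: 100% of values above 0 are whole multiples of 1 step per library within 0.01 reads, from which reads were recovered. Tools listed in the submitters' processing notes are HISAT2 2.1.0, HTSeq 0.6.1, Trimmomatic 0.39 and DESeq2 1.26.0, with the build mm10. Not given in the sources used here are the annotation and how strand and multiply matching reads were handled.

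Of 43626 gene identifiers, 42545 matched GENCODE M21 on GRCm38 (mm10), which gave coordinates, exon lengths and GC content. Genes with at least 10 normalized counts in at least 3 libraries were tested with limma 3.58.1 (trend, robust) in R 4.3.3 on log2(normalized count + 1), with Benjamini-Hochberg adjustment over all genes tested and a threshold of 0.05. The fit was repeated without WT replicate 1. On recovered reads, edgeR 4.0.16 and DESeq2 1.42.0 were alternatives, beside other scaling, pseudocount and filter, array weights, removal of GC content and length, and each library left out. The code was tested on simulated data. No 2 libraries agreed within sampling noise.

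The members and lists were chosen with earlier results of these data known. All 33 genes are named. Values per library are given for common markers and for the largest and smallest fold change of each role. They are also given for Sox2, Cst3 and Slc6a11, which fall outside this rule. Cst3 and Slc6a11 were chosen after their values were seen. From each further astrocyte list, 3 genes with the smallest unadjusted p are named.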

Additional observations from a re-analysis of the deposited data

Results flagged for a closer look

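Among the 4 hDISC1AA/+ libraries, 2 of the 33 astrocyte genes had a single library far from the other 3, where chance alone would mark about 1 gene in 20. Plpp3, a lipid phosphatase, had 7405 normalized counts in the unnumbered library and 9044 to 9108 in the others. Cst3, cystatin C, had 23568 normalized counts in hDISC1AA/+ replicate 1 and 21662 to 21978 in the others.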

How the results depend on the processing

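No gene was called at an adjusted p under 0.05 in any setting of either comparison. At an unadjusted p under 0.05, limma had 431 of 17670 genes with 7 libraries, edgeR 452 of 17540, DESeq2 604 of 28381 and array weights 1823 of 17670. Without WT replicate 1 these were 275 of 17528, 277 of 17859, 218 of 27786 and 606 of 17528. With array weights and 7 libraries, 3 of the 33 astrocyte genes (Slc1a2, Bmpr1b and Fgfr3) were among the 1823. All 33 astrocyte genes kept their direction with TMM scaling, a pseudocount of 5, no filter, edgeR and DESeq2. The array weights with 7 libraries were 0.244, 0.942 and 5.23 for WT replicates 1 to 3, so WT replicate 3 counted most. They were 0.279 for hDISC1AA/+ replicate 1 and 1.23 to 1.74 for the other hDISC1AA/+ libraries. With these weights the sign changed for Atp1b2 (-0.013), Gfap (0.0011), S100b (0.14), Apoe (0.027), Cst3 (0.0093) and Btbd17 (-0.089). With GC content and transcript length removed it changed for Slc6a11 (-0.034), Atp1b2 (-0.040) and Btbd17 (-0.0076), so that all 33 were lower (median -0.23). Without WT replicate 1 this setting took the number lower from 18 to 25 of 33 and the median from -0.013 to -0.045.

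With each library left out in turn, the number of the 33 genes lower in hDISC1AA/+ ran from 18 (without WT replicate 1) to 32 (without WT replicate 2). Without WT replicate 2, 13 of the 33 had an unadjusted p under 0.05 in limma, against 875 of 17510 genes tested. With any other single library left out, at most 2 of the 33 did. Starting without WT replicate 1, an alternative chosen after seeing the data, the number lower ran from 10 (without WT replicate 3) to 31 (without WT replicate 2). The log2 fold change took both signs for 18 genes when a single library was left out. The ranges were -0.061 to 0.14 for Slc6a11, -0.27 to 0.0069 for Slc7a10, -0.040 to 0.031 for Atp1b2, -0.41 to 0.0091 for Mlc1, -0.19 to 0.017 for Hepacam, -0.62 to 0.20 for Gfap, -0.19 to 0.15 for S100b, -0.40 to 0.0026 for Aldh1l1 and -0.26 to 0.11 for Aldoc. They were -0.38 to 0.031 for Acsbg1, -0.26 to 0.079 for Cbs, -0.16 to 0.051 for Ntsr2, -0.35 to 0.031 for Clu, -0.21 to 0.14 for Apoe, -0.39 to 0.18 for Cst3, -0.18 to 0.11 for Mfge8, -0.051 to 0.16 for Btbd17 and -0.19 to 0.038 for Sox9. Without both WT replicate 1 and hDISC1AA/+ replicate 1, Aqp4 came to 0.0036 (-0.70 to -0.25 with a single library left out), Gfap to 0.31, S100b to 0.20 and Cbs to 0.084. The cause was not tested. No paired analysis was possible because the replicate numbers follow record order and pair nothing. No fit at equal depth was made.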

Other observations

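WT replicate 3 was above WT replicate 2 in markers of most other non-neuronal cells as well as in the 33 astrocyte genes. It was higher for 53 of 58 further astrocyte genes (median log2 difference 0.19), 11 of 12 oligodendrocyte markers (0.35), 9 of 10 markers of oligodendrocyte precursors (0.35), 10 of 12 microglial markers (0.21), 13 of 14 endothelial and mural markers (0.33) and 11 of 12 meningeal fibroblast markers (0.43). Of 16 neuronal markers it was higher for 5 (median -0.089). Ependymal (2 of 4 tested) and choroid plexus markers (2 of 6 tested) were split. Over all genes 48.0% were higher.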
